A study of Mus musculus with 6 samples.

Results

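Male germ cells change their transcription machinery as they enter meiosis and again as they become haploid, and the 10 genes described here encode regulators of those steps. They are Crem and its coactivator Fhl5, the core promoter factors Tbpl1 and Gtf2a1l, the DNA-binding factors Rfx2, Sox30, Spz1 and Mybl1, and the zinc finger factors Ovol1 and Ovol2. They were chosen by name, and their probes were found through the RefSeq mRNA that each probe was designed on. All 10 had at least 1 mRNA probe, with 22 probes among 22464 mRNA probes on the array and 10 genes among 19053 with an mRNA probe.

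A-MYB, the product of Mybl1, acts in pachytene spermatocytes and switches on meiotic genes and the genes that make piRNAs. In round spermatids CREM, helped by the LIM protein ACT (from Fhl5), drives genes for packing DNA and building the sperm tail, while RFX2 drives genes for the flagellum and SOX30 the passage to the haploid programme. Spermatogonia and supporting cells make up the neonatal testis, in which meiosis has not yet begun, whereas the adult testis holds every germ cell stage.

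RNA from whole testes of male C57/BL6 mice was measured at 2 ages, neonatal (6 days) and adult (8 weeks), on 3 arrays per age. Each array stands for a separate group of mice of its age. The question was how RNA levels differ between the neonatal and the adult testis. Replicates 1 and 2 of both ages share 1 scan and replicate 3 of both ages another.

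Levels are given as scaled log2 signal, in which 0 is the 75th percentile of the array's probes and 1 unit is a 2-fold difference. Signals too low to separate were set to a common floor of -7.22. A gene was called higher or lower where the fold change was at least 5 and the limma p, adjusted over all 24517 lncRNA and mRNA probes tested, at most 0.05. A spot was well above background by the scanner's own flag. Spots that the scanner marked as outliers within the spot were left out of the fit, but they are included in the levels, sums and intensities below. Sentences that give the level of a single probe on each array say which of its spots were marked. Where a count of 0 called is given for a list on this scale and with all replicates, no tested probe of it reached a 5-fold change in that direction at any p. Counts of 0 in alternative settings can also come from the p alone. A probe needed at least 2 complete pairs of a neonatal and an adult array to be tested. The p-values measure how the difference between the ages varies over replicate numbers. Shifts that both ages of a replicate number share are taken out by a block in the fit. They therefore do not measure the full spread between groups of mice. Without that block the standard error (SE) was larger for all tested regulator probes but those of Tbpl1 and Spz1. For Ovol1 it was 0.58 in place of 0.16.

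Markers of germ cell stages were read first to check the labelled ages. All 5 spermatid markers tested were called higher in adult testis (Acrv1, Tnp1, Tnp2, Prm1 and Prm2), and the summed scaled signal of the list was 0.741, 0.778 and 0.860 in neonatal arrays against 1229, 1452 and 1678 in adult arrays. The brightest of them was Tnp1, where brightest means the highest log2 level averaged over all 6 arrays, both ages together. In adult arrays alone Prm2 read highest, at 8.77, 8.95 and 9.12. Of 6 spermatocyte markers tested, 3 were called higher (Ccna1, Spo11 and Hspa2) and 0 lower, with sums of 30.4, 26.1 and 35.3 in neonatal and 278, 290 and 337 in adult arrays. Ldhc was the brightest of these by that average, and in adult arrays alone Hspa2 was. Spermatogonium markers lay the other way, with sums of 121, 128 and 118 in neonatal and 25.3, 27.3 and 22.6 in adult arrays. Of 3 that were tested, Stra8 was called lower. Uchl1 was the brightest of the list, and Gfra1, which was not tested, stayed near background on all 6 arrays. In whole testis, fewer cells of a type and less RNA per cell cannot be told apart, and the part of germ cell composition in every difference below was not tested.

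Somatic cell markers accompany the regulators in whole testis. Sertoli cell markers had 2 of 3 called lower (Gata4 and Fshr), with Wt1 the brightest, and their sums were 71.8, 73.8 and 51.2 in neonatal against 17.6, 13.3 and 11.9 in adult arrays. Endothelial markers had 2 of 4 called lower (Pecam1 and Cdh5), with Cdh5 the brightest and sums of 7.89, 9.09 and 15.1 against 2.17, 1.78 and 3.28. For Leydig cell markers 0 of 3 were called, with Hsd3b1 the brightest and sums of 26.6, 28.4 and 25.2 against 81.2, 67.3 and 62.7, and 2 of 6 were called higher with marked spots kept. For peritubular myoid cells 0 of 3 were called, Myh11 was the brightest and Cnn1 stayed near background on all 6 arrays, with sums of 21.7, 21.99 and 27.0 against 4.78, 4.34 and 6.56. For macrophages 0 of 2 were called, with Csf1r the brightest and sums of 2.84, 2.81 and 2.76 against 1.78, 1.89 and 2.46. With marked spots kept, 4 of 7 Sertoli and 4 of 5 spermatogonium markers were called lower. Endothelial calls went from 2 to 1 with normexp correction, to 3 with the authors' values and to 0 with no filter on dim probes, where the median stayed at -2.53 and only the p changed. Beside these, 1 spermatocyte marker was called lower with quantile normalization or the authors' values. With quantile normalization 3 of 3 spermatogonium markers were called lower, and with scaling to the median 2 were. For myoid cells 1 of 3 was called lower with quantile normalization, scaling to the median, normexp correction or the authors' values.

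Of the 10 regulators, 9 could be tested and 6 were called higher in adult testis (Crem, Fhl5, Rfx2, Sox30, Gtf2a1l and Spz1), where 13.1% of all 12970 genes tested were called higher. None (0) of the 9 was called lower, where 13.9% of all genes tested were. At a fold change of at least 2, 8 of the 9 passed as higher, against 23.8% of all genes, and Tbpl1 passed as lower, against 36.3%. The median log2 fold change, adult minus neonatal, was 3.74 over the 19 probes tested and 4.75 over the genes, beside -0.40 over all 15121 mRNA probes tested. Since 10 of the 19 probes belong to Crem, the median over probes is mostly a value of Crem. Of the 22 probes, 21 were well above background on all 6 arrays, so the neonatal testis gave a measurable signal for every gene but Spz1.

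Outlier marks set which regulators could be tested. They fell mainly on bright probes of replicate 3, covering 83.3% of the brightest probes (those above the 75th percentile) in neonatal replicate 3 and 76.2% in adult replicate 3, against 17.9% to 24.6% on the other arrays. Of the 22 regulator probes, 11 were marked on adult replicate 3, 6 on neonatal replicate 3 and 4 on an array of replicate 1 or 2. As a result 8 probes were tested with 3 pairs and 11 with 2, and Ovol2 was not tested at all. With the marked spots kept, all 10 genes could be tested and 7 were called higher, Ovol2 being the added gene, where 13.3% of 16313 genes were called higher. Without replicate 1, or without replicate 2, only Crem, Fhl5, Tbpl1 and Ovol1 kept the 2 pairs needed, and of these 4 Crem and Fhl5 were called. Without replicate 3, the same 9 genes were tested and the same 6 called. For Rfx2, Sox30, Gtf2a1l, Spz1 and Mybl1 the main fit had already used replicates 1 and 2 only. That run left their fold changes unchanged and is no check on them.

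**Figure D1:**
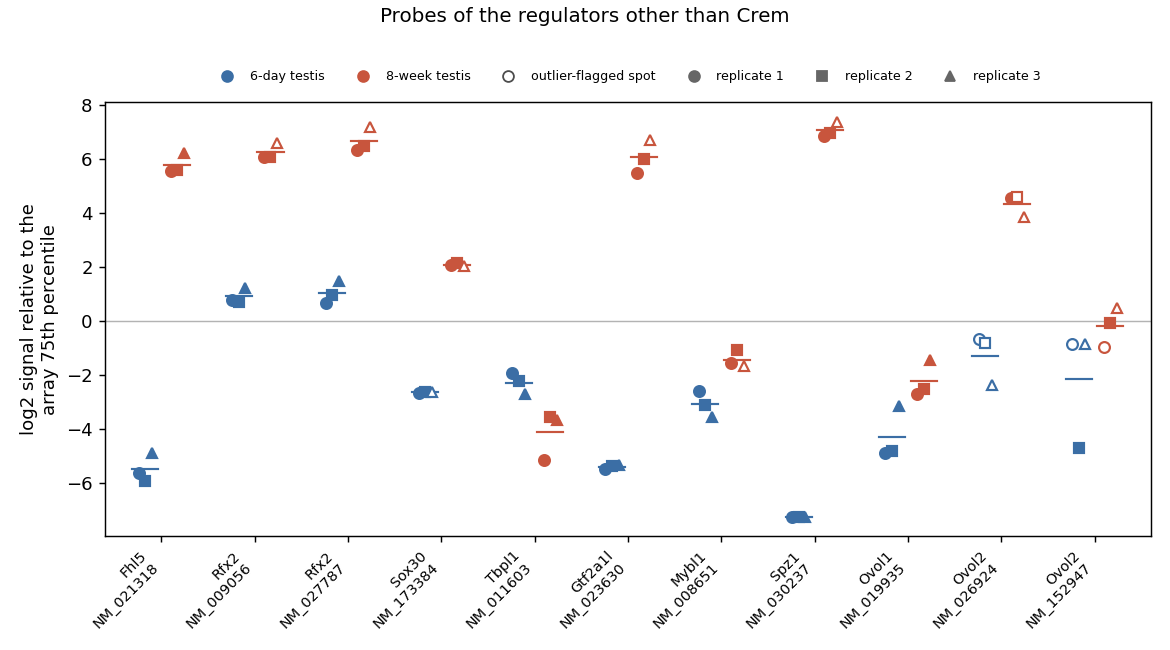
Scaled log2 signal (0 is the array's 75th percentile) of the probes of the regulators other than Crem on 3 neonatal and 3 adult arrays, 1 point per array, with marked spots drawn open and a bar at the mean of each age. Adult arrays lie above neonatal arrays for Fhl5, Gtf2a1l, Spz1, Rfx2 and Sox30 and below them for Tbpl1.

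Crem encodes a cAMP-responsive basic leucine zipper factor that exists in activator and repressor forms, and 11 probes were designed on its RefSeq variants. Of these, 10 were tested and 8 were called higher, those for NM_001110850, NM_001110853, NM_001110854, NM_001110855, NM_001110856, NM_001110857, NM_001110858 and NM_001110859. For NM_001110859 the level in replicates 1, 2 and 3 was -1.08, -1.09 and -0.32 at 6 days and 2.96, 2.82 and 3.59 at 8 weeks. Every adult array was above every neonatal array, and within each age replicate 3 was the highest. It rose by 3.95 (SE 0.10) on the log2 scale, 15.5-fold, in 3 of 3 pairs (adjusted p = 0.000126).

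Across the 8 called Crem probes the picture was nearly the same. Their neonatal levels ran from -1.10 to -0.88 in replicate 1, from -1.09 to -0.82 in replicate 2 and from -0.32 to 0.34 in replicate 3. Adult levels ran from 2.08 to 2.96, from 2.80 to 3.05 and from 3.49 to 3.71. Some ends of these ranges are marked spots that the fit left out, since neonatal replicate 3 was marked for NM_001110856 and NM_001110857, adult replicate 1 for NM_001110853 and adult replicate 3 for NM_001110850, NM_001110854 and NM_001110856. The log2 fold changes lay between 3.67 and 3.95 (12.7-fold to 15.5-fold), with SE of 0.10 to 0.17 and adjusted p of 0.000818 or less. With the t-test of the methods after adjustment, NM_001110850, NM_001110853, NM_001110856 and NM_001110857 lost their call (adjusted p of 0.051 to 0.064) at the same fold changes. Their near identity does not count as repeated evidence, since they may read shared sequence of 1 gene, and the deposited files hold no probe sequences from which to tell.

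The other Crem probes gave a different reading. For NM_001110851 the level was -5.50, -5.43 and -4.59 in neonatal and -5.97, -6.03 and -5.35 in adult arrays, near the low end of the scale. The ages overlapped, because neonatal replicates 1 and 2 lay below adult replicate 3. Its log2 difference of -0.61 (SE 0.11), with an adjusted p of 0.00923, was under the fold threshold. For NM_001110852 the level was -5.71, -5.50 and -4.90 against -5.90, -5.78 and -4.97, again overlapping, and the difference of -0.18 (SE 0.11) had an adjusted p of 0.194. With the normexp background correction both of these dim probes turned positive, at 0.35 and 0.36, so no direction is given for them. For NM_013498, which was marked on neonatal replicates 2 and 3 and adult replicates 1 and 2 and was not tested, the level was -1.08, -2.02 and -0.53 against 0.56, 1.45 and 1.48, with every adult array above every neonatal array. With marked spots kept it stood 5.17-fold higher in adult testis (adjusted p = 0.00549).

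**Figure D2:**
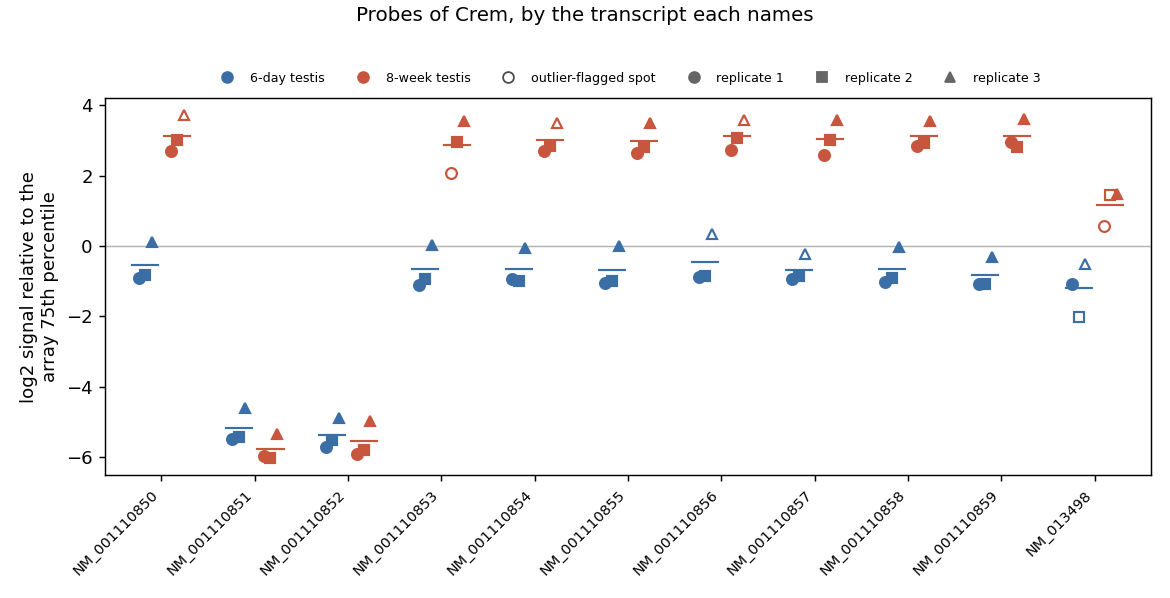
Scaled log2 signal of the 11 Crem probes on the 6 arrays, 1 point per array, with marked spots drawn open and a bar at the mean of each age. The 8 called probes lie together, at -1.10 to 0.34 in neonatal and 2.08 to 3.71 in adult arrays, and the probes for NM_001110851 and NM_001110852 stay at or below -4.59.

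Fhl5 encodes ACT, the testis LIM-only protein that activates CREM without the phosphorylation other CREB factors need. Its probe (NM_021318) read -5.60, -5.93 and -4.87 in neonatal and 5.54, 5.59 and 6.21 in adult arrays. All adult arrays lay far above all neonatal arrays, and no spot was marked. Fhl5 rose by 11.25 (SE 0.14) on the log2 scale, which is 2428-fold, in 3 of 3 pairs (adjusted p = 7.62e-05). The log2 value was 10.56 with quantile normalization and 10.12 with the normexp correction, which adds an offset to every signal, so the fold depends on the scaling and the correction.

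Gtf2a1l encodes ALF, the germ cell counterpart of the large subunit of TFIIA, which steadies TBP or its relatives on core promoters. Its level (NM_023630) was -5.47, -5.36 and -5.32 in neonatal and 5.49, 5.99 and 6.71 in adult arrays, the last of them marked. Neonatal arrays lay close together, and all adult arrays were far above them. Gtf2a1l rose by 11.15 (SE 0.18) on the log2 scale over 2 pairs, which is 2279-fold (adjusted p = 0.000156). It was 10.58 with quantile normalization and 9.96 with the normexp correction.

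Tbpl1 encodes TRF2, the TBP-related factor that spermatids need to finish their development, and it was the only regulator whose adult levels were lower. Its probe (NM_011603) read -1.93, -2.20 and -2.69 in neonatal and -5.12, -3.55 and -3.65 in adult arrays. Every adult array was below every neonatal array, with adult replicate 1 the lowest. The fitted difference was -1.83 (SE 0.49, adjusted p = 0.0279), negative in 3 of 3 pairs and under the fold threshold. It was -1.16 without replicate 1, -2.07 without replicate 2 (adjusted p = 0.119), -2.27 without replicate 3 (adjusted p = 0.0799) and -0.96 in the single pair of scan 2, so the size rested on adult replicate 1 while the sign was negative in every alternative run. The adjusted p was also above 0.05 with no filter on dim probes (0.134) and with the test of the methods after adjustment (0.158).

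Rfx2, a winged-helix factor that binds X boxes, had 2 probes. For NM_009056 the level was 0.79, 0.72 and 1.24 in neonatal and 6.08, 6.06 and 6.59 in adult arrays, and for NM_027787 it was 0.67, 0.96 and 1.47 against 6.32, 6.49 and 7.17. On both probes adult replicate 3 was marked, and adult arrays lay above all neonatal arrays with no overlap. Over 2 pairs the rise on the log2 scale was 5.31 (SE 0.14, 39.8-fold, adjusted p = 0.000282) for NM_009056. For NM_027787 it was 5.59 (SE 0.14, 48.1-fold, adjusted p = 0.000273).

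Sox30, an HMG-box factor active in late meiosis and in spermatids, read -2.66, -2.63 and -2.61 in neonatal and 2.07, 2.15 and 2.02 in adult arrays (NM_173384). Both replicate 3 spots were marked, and arrays of an age lay close together with no overlap between ages. Over the remaining 2 pairs Sox30 rose by 4.75 (SE 0.14), 27.0-fold (adjusted p = 0.000341).

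Spz1 encodes a basic helix-loop-helix leucine zipper protein of the testis. Its probe (NM_030237) was at the floor in all 3 neonatal arrays, none of them well above background, and at 6.86, 6.96 and 7.36 in adult arrays, the last marked. It was the only regulator with no measurable neonatal signal. Set against the lowest signal well above background on the neonatal arrays, the 2 unmarked adult arrays were at least 16823-fold higher (adjusted p = 0.00012 for the fitted difference). The bound holds for this scale only, since the fitted log2 difference of 14.13 was 11.89 with the normexp correction and 15.48 with no floor.

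Mybl1, which encodes A-MYB, differed much less. Its level (NM_008651) was -2.58, -3.12 and -3.54 in neonatal and -1.56, -1.05 and -1.64 in adult arrays, the last marked. All adult arrays were above all neonatal arrays. Over 2 pairs the difference was 1.55 (SE 0.33, 2.92-fold, adjusted p = 0.0247), which did not reach the fold threshold. It lay between 1.29 and 1.78 over the alternatives, with an adjusted p of 0.06 without replicate 3, 0.185 with no filter on dim probes and 0.252 with the test of the methods after adjustment.

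Ovol1 encodes a zinc finger repressor needed for spermatocytes to pass through pachytene. Its level (NM_019935) was -4.86, -4.81 and -3.15 in neonatal and -2.71, -2.52 and -1.45 in adult arrays. Replicate 3 was the highest array of each age, and neonatal replicate 3 still lay below all adult arrays. The difference was 2.05 (SE 0.16, 4.14-fold, adjusted p = 0.000806), positive in 3 of 3 pairs and short of the 5-fold threshold, and it lay between 1.57 and 2.22 over the alternatives.

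Ovol2, the related factor best known from epithelia, was the regulator that could not be tested, because each of its probes had marked spots on at least 4 arrays. For NM_026924 the level was -0.67, -0.80 and -2.35 in neonatal and 4.54, 4.58 and 3.85 in adult arrays, with all but adult replicate 1 marked. All adult arrays were far above all neonatal arrays, and with marked spots kept the probe stood 48.3-fold higher (adjusted p = 9.8e-05). For NM_152947 the level was -0.85, -4.70 and -0.83 against -0.97, -0.06 and 0.48, with neonatal replicates 1 and 3 and adult replicates 1 and 3 marked. Here the ages overlapped, neonatal replicate 2 stood apart from the other neonatal arrays, and with marked spots kept the 3.86-fold difference had an adjusted p of 0.134. The files do not tell which part of the gene each probe reads.

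The unscaled intensities, background-subtracted but not brought to a common scale, show how far the regulators lay from the low end of the arrays, the marked spots being the same. The Fhl5 probe gave 60.9, 41.1 and 47.4 intensity units in neonatal and 86390, 68590 and 55450 in adult arrays. Gtf2a1l gave 66.5, 60.9 and 34.7 against 83450, 90450 and 78430. For these genes the neonatal signal was low but, by the scanner's flag, above background on each array. Spz1 gave 10.2, 4.99 and 6.59 against 215600, 177200 and 123100, and its neonatal spots had no such flag. The Rfx2 probe for NM_027787 gave 4675, 4871 and 3835 against 147900, 127900 and 107600, so Rfx2 already had a strong signal at 6 days. Sox30 gave 467, 403 and 227 against 7792, 6315 and 3036. Tbpl1 gave 772, 545 and 215 in neonatal and 53.4, 122 and 59.5 in adult arrays, and the ages did not overlap on this scale either. Ovol1 gave 102, 89.1 and 156 against 284, 249 and 273.

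Since OVO factors are also made in duct epithelium, markers of that tissue were read beside Ovol1 and Ovol2. Of 6 tested, 2 were called lower in adult testis (Cdh1 and Krt19) and 0 higher, and with normexp correction 0 were called lower. Their summed scaled signal was 2.83, 2.51 and 3.88 in neonatal and 3.05, 3.06 and 4.10 in adult arrays, with Krt8 the brightest. Their part in the OVO values was not tested.

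The study placed 3 lncRNAs at regulator genes, in a table that lists only lncRNAs called on these samples, so their differences are a description. AK017377, exonic and in sense at Rfx2 (mm9 chr17:56969082-56970333, minus strand), read -5.92, -6.19 and -5.72 in neonatal and 0.56, 0.53 and 0.61 in adult arrays, the last marked. It stood 97.3-fold higher in adult testis (adjusted p = 0.000238), the same direction as the Rfx2 mRNA. AK017377 overlaps an Rfx2 exon in sense, and without probe sequences its signal cannot be told apart from that of Rfx2 mRNA. AK007144, exonic and antisense at Ovol2 (mm9 chr2:144157525-144158374, plus strand), read -7.22, -7.15 and -6.20 against 4.79, 4.49 and 5.08. With neonatal replicate 1 at the floor, its fitted difference was 3203-fold (adjusted p = 8.31e-05) and, unlike both Ovol2 mRNA probes, it carried no marked spot. AK007900, bidirectional to Ovol1 (mm9 chr19:5561052-5561679, plus strand), was at the floor in every neonatal array and at -3.99, -5.13 and -4.84 in adult arrays, at least 5.57-fold higher (adjusted p = 0.00155). All 3 thus lay on the same side as the mRNA of the gene they were placed at. For Ovol2 this rests on the probe for NM_026924 alone, read with its marked spots, since the ages overlapped on NM_152947.

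The relatives of the regulators moved in both directions. Of 12 CREB and ATF genes tested, 1 was called higher and 3 lower, with a median log2 fold change of -1.45, beside 13.1% and 13.9% of all genes. The number lower was 2 with normexp correction (median -0.38) and 5 with the authors' values (median -1.52). The riser was Creb3l4, a membrane-bound factor of spermatids, at 6.25 (SE 0.14, adjusted p = 0.00023). On the same scale Creb5 fell by 5.36, Atf3 fell by 5.13 and Crebl2 fell by 3.13. For Creb1, the parent of the family, 3 probes gave -1.63, -1.67 and -1.85 and none was called. Atf1 was not tested, and its levels were 3.53, 3.86 and 4.12 in neonatal and 3.56, 3.85 and 3.72 in adult arrays, all marked but adult replicate 1.

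Among the LIM-only relatives of Fhl5, the CREB coactivators and Kif17, 2 of 6 were called higher and 2 lower, with a median of -0.98 (-0.95 with dim probes at their bounds). With marked spots kept, 2 of 10 were called higher and 5 lower with a median of -2.49, with the authors' values 2 and 5 of 9 with a median of -2.76, and with normexp correction 1 and 1 of 6 with a median of 0.12. Fhl4, a further testis LIM-only gene, was at least 27.4-fold higher, and Kif17, the kinesin that carries ACT out of the nucleus, was at least 25.6-fold higher (limma-adjusted p = 0.000488 and 0.000188), neither being well above background in any neonatal array. Crtc3, a cAMP-regulated coactivator, fell by 4.85. Fhl3 was at least 5.31-fold lower (adjusted p = 0.00783), but its pair differences were -2.22, -2.00 and -4.16, so the size rested on replicate 3, and without that replicate 1 gene of the list was called lower. Fhl1 and Fhl2, which are abundant in muscle and heart, were not tested, and both were among the genes called lower with marked spots kept. The Fhl2 probe read 4.22, 4.12 and 4.16 in neonatal and 1.15, 1.23 and 0.84 in adult arrays, with no overlap and with neonatal replicate 3 and adult replicates 1 and 3 marked. Each of the 3 Fhl1 probes also had every adult array below every neonatal array, as for NM_010211, with 3.54, 3.80 and 1.59 against 1.23, 1.44 and -0.75, all marked but adult replicate 3.

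Among RFX factors and partners, 2 of 6 were called higher and 0 lower, with a median of 1.12. Rfx6 was at least 46.8-fold higher on its probe for NM_177306 (adjusted p = 0.000284) and Rfx3, which shares ciliary targets with Rfx2, was 5.38-fold higher (adjusted p = 0.00128). Rfx1 lay at 1.12 (SE 0.15) and was not called. With marked spots kept, 4 of 9 were called higher, Rfx4 and Rfx8 being added, and 1 lower (Rfxank). Rfx8 then stood 105-fold higher (adjusted p = 1.36e-05), and the Rfx4 probe for NM_027689 was at the floor in every neonatal array and at 1.29, 1.49 and 0.73 in adult arrays, of which replicates 1 and 3 were marked. With scaling to the median 1 was called higher, and with quantile normalization 2 higher and 1 lower.

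Of 14 SOX genes tested, 2 were called higher and 2 lower, with a median of -0.19. The number lower was 5 of 17 with marked spots kept (median -0.85) and 8 of 16 with the authors' values (median -1.03). With normexp correction 1 was called higher and 3 lower (median 0.30), so no direction is given for the family. Sox5, which occurs in spermatids, had probes at 4.86 (NM_001113559) and at least 76.2-fold higher (NM_011444), and Sox14 lay at 3.07. Sox3, a factor of spermatogonia, fell by 3.84 and Sox12 fell by 3.36. Sry and Sox15 stayed near background on all 6 arrays.

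The general machinery that Tbpl1 and Gtf2a1l belong to was read in the same way. Of 17 core promoter genes tested, 0 were called higher and Taf8, a TFIID subunit, was called lower, at -2.78 (SE 0.22, adjusted p = 0.000821). The median was 0.36, and -0.09 with quantile normalization. The Taf8 call was lost with normexp correction, and with marked spots kept 1 of 23 was called higher (Taf9) and 2 lower (Taf8 and Taf9b). Tbp, the parent of Tbpl1, read -0.35, -0.30 and 0.43 in neonatal and 1.72, 0.33 and 1.24 in adult arrays, the last marked. The ages overlapped, and over 2 pairs the log2 difference was 1.35 (SE 0.43, adjusted p = 0.0666). Gtf2a1, the general counterpart of Gtf2a1l, was not tested, and its probe for NM_031391 read 0.53, -0.05 and -1.50 against 1.25, 1.25 and -0.23, also overlapping and all marked but neonatal replicate 3. Its other probe, for NM_175335, read 0.78, -1.30 and 0.24 against -0.91, -0.73 and -1.23, all marked but adult replicate 3. Tbpl2, the relative found in oocytes, stayed near background throughout.

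Of the 7 MYB factors and MuvB subunits tested, limma called 0 in either direction, and the median was -0.04. Myb, the parent of Mybl1, lay at -0.66 (SE 0.26, adjusted p = 0.0847), and Mybl2, which serves dividing cells, at -1.66 (SE 0.14, adjusted p = 0.00278). Of the genes that OVO factors are known to repress only Zeb1 could be tested, and it lay at -1.54 (SE 0.15) and was not called. With marked spots kept, 2 of 3 were called lower, Id2 at -2.70 (adjusted p = 9.2e-05) and Myc at -3.76 (adjusted p = 4.1e-05).

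Genes known to depend on these regulators give a further view of the same ages. All 7 CREM-dependent genes tested were called higher, with a median of 12.47, and 4 of them (Prm1, Prm2, Tnp1 and Tnp2) are also in the spermatid marker list. Prm2, a protamine, rose by 14.32 (SE 0.18) and Tnp2, a transition protein, by 14.18 (SE 0.16). Of 7 piRNA pathway genes under A-MYB, 3 were called higher and 0 lower, with a median of 2.15, and 2 were called higher with quantile normalization, scaling to the median, normexp correction or the authors' values. Tdrd6, a component of the chromatoid body, rose by 10.61 to 11.04 over its 3 probes, Piwil1, the pachytene PIWI protein, by 6.31 (SE 0.14), and Tdrd5 by 2.42. With marked spots kept Tdrd5 was not called and Mael was. Of 10 intraflagellar transport genes, a class that RFX factors control, 3 were called higher and 0 lower, with a median of 1.29, and 2 were called higher with quantile normalization, scaling to the median or the authors' values. Ift122 lay at 2.93 (SE 0.15), Ift74 at 2.80 (SE 0.14) and Ift80 at 2.44.

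Stage lists of other regulators were read in the same way. Of 10 spermatogonial transcription factors tested, 6 were called lower and 1 higher, with a median of -3.07, and 4 were called lower with normexp correction and 10 of 14 with marked spots kept. Sall4 fell by 4.43 on its most changed probe (NM_201395) and Neurog3 fell by 4.03, whereas Id4, an inhibitor of differentiation in stem spermatogonia, rose by 2.75 (SE 0.18, adjusted p = 0.00152) against the list. Of 13 other regulators of meiotic and haploid cells, 6 were called higher and 0 lower, with a median of 1.95, and 5 were called higher with quantile normalization, scaling to the median or normexp correction. Brdt, a bromodomain protein of spermatids, rose by 5.52 (SE 0.14) and Tesmin, a testis metallothionein-like factor, by 4.81 (SE 0.12). No list was tested against the others.

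Leaving out replicate 1 or replicate 2 removed many genes of most lists from the fit, since marked spots of replicate 3 then left too few pairs, and the medians below are therefore over fewer genes. Among RFX factors and partners 0 of 3 were called either way, with a median of -1.87 without replicate 1 and -1.46 without replicate 2. Among the other meiotic and haploid regulators 1 of 5 was called higher (median 0.04) without replicate 1 and 1 of 4 (median -0.86) without replicate 2. For intraflagellar transport 0 of 2 were called, with medians of 0.02 and 0.17, and for piRNA pathway genes 0 of 2 (1.45) and 0 of 1 (1.64). Core promoter genes had medians of -0.39 and -0.44, MYB factors and MuvB subunits 0.31 and 0.45, and duct epithelium markers 0.97 and 1.00, each opposite in sign to the value with all replicates. Spermatocyte markers had 0 of 1 called, with medians of -2.08 and -1.96, also opposite in sign. Spermatid markers were called higher in 5 of 5 and 4 of 4, and Sertoli cell markers lower in 1 of 2 and 0 of 2. Of endothelial markers 0 of 1 was called in both cases, and of spermatogonium and myoid markers 0 were tested. Of the CREB and ATF genes 0 of 5 were called higher and 1 lower either way. CREM-dependent genes were called higher in 6 of 6 and 5 of 5. Among spermatogonial factors 4 of 7 were called lower and 1 higher without replicate 1, and 4 of 6 lower and 0 higher without replicate 2.

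**Figure D3:**
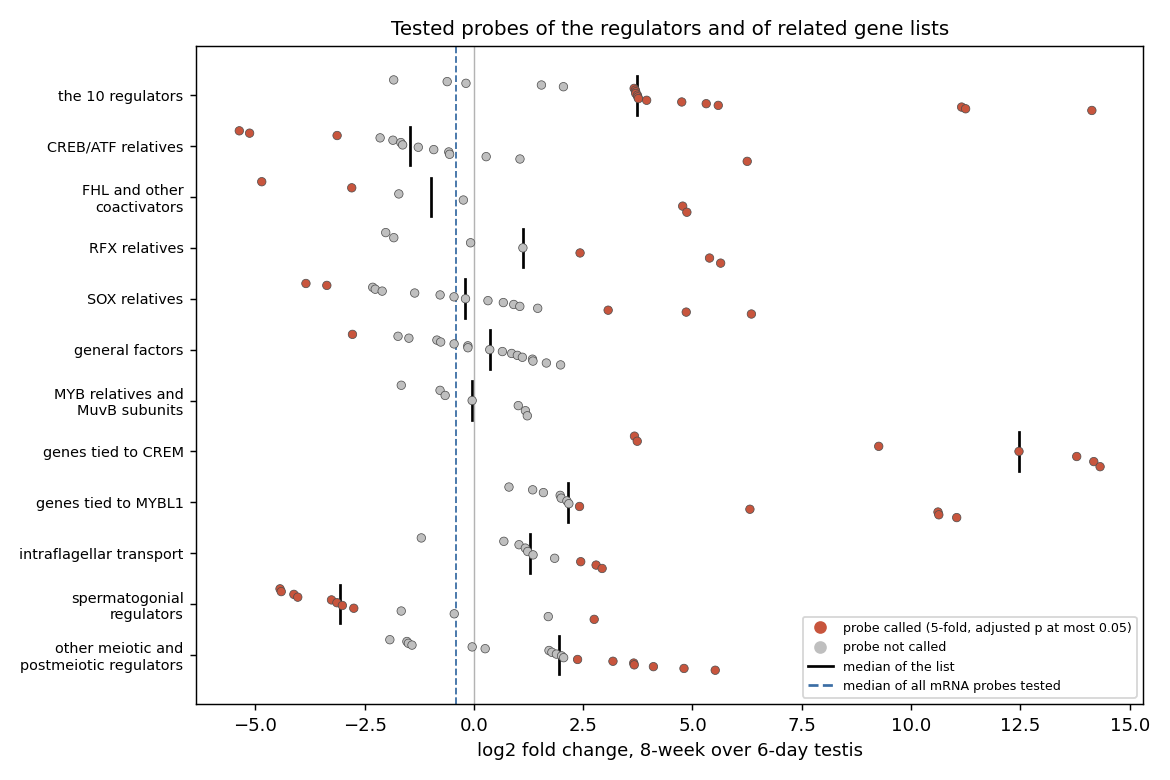
Log2 fold change, adult minus neonatal, of the tested probes in each list, 1 point per probe, with called probes in red, a bar at the median of each list and a dashed line at the median of all mRNA probes tested. Medians run from -3.07 for spermatogonial transcription factors to 12.47 for CREM-dependent genes, beside -0.40 for all mRNA probes.

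The nearest profiles were sought among 4476 mRNA probes that were well above background and unmarked on all 6 arrays, by the root mean square distance between log2 levels centred on their own mean. This could be done for 8 regulator probes, of which 7 are given. Fhl5 lay closest to Cep295nl (distance 0.16) and Usp50 (0.20). The Crem probe for NM_001110859 lay closest to Tram2 (0.07) and Wdr54 (0.09), and those for NM_001110855 and NM_001110858 both had Cox6b2 and C8g as their nearest pair, at 0.07 to 0.10. The dim Crem probe for NM_001110851 had other neighbours, Mtg2 (0.04) and Fkbp14 (0.05). Ovol1 lay closest to Klhl41 (0.09) and Cyp2c65 (0.22). Tbpl1 had the most distant neighbours, Ccl7 (0.26) and Aldh3a1 (0.33).

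RefSeq promoters (GRCm38.p6) were at hand for 7 of the 10 genes, 8 promoters in all, and not for Crem, Mybl1 and Ovol1. The 250 bases before each start were searched on both strands for letters that the factors of these families bind. TGACGTCA, the full cAMP response element, was in 1.55% of all 32851 promoters and the shorter TGACG, which it contains, in 17.8%. GTTGCC, from the X box for RFX factors, was in 10.4%, AACGG for MYB in 14.5%, ACAAT for SOX in 27.7%, TATAAA in 12.4% and CCGTTA for OVO, which contains the other strand of AACGG, in 2.18%. The Rfx2 promoter held 3 AACGG, 1 GTTGCC and 1 TGACG, and 76.0% of its bases were G or C, beside a median of 52.4% over all promoters. GTTGCC was also in the promoters of Gtf2a1l and Spz1, once in each. Sox30 held 1 AACGG and 1 ACAAT, Spz1 and the upstream start of Fhl5 each 1 ACAAT, Ovol2 1 AACGG, and Tbpl1 and the other start of Fhl5 none of these letters. A match is a description of the letters and not a binding site.

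The last 190 bases before the start are shown for genes called higher in adult testis, since these rose together, with the searched letters on either strand in capitals. For Fhl5 the upstream start is shown, and its other start, which held none of these letters, is left out. In the Rfx2 stretch the GTTGCC that starts 116 bases before the gene overlaps an AACGG read on the other strand that starts 118 bases before it, and the TGACG, 224 bases before it, lies outside the stretch. The stretches are Rfx2 at chr17:56831009-56831198 (minus strand), Gtf2a1l at chr17:88668470-88668659 (plus strand), Sox30 at chr11:45980120-45980309 (plus strand), Spz1 at chr13:92576233-92576422 (minus strand) and Fhl5 at chr4:25242853-25243042 (minus strand), all from RefSeq on GRCm38.p6.
Rfx2: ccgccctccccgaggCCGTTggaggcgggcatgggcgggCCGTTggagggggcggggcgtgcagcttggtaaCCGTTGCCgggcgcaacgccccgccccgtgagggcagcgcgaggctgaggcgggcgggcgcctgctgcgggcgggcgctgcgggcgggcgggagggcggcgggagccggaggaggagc
Gtf2a1l: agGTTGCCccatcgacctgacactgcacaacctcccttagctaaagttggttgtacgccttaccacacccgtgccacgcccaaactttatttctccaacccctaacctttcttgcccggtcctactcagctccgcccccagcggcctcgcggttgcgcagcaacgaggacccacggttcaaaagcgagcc
Sox30: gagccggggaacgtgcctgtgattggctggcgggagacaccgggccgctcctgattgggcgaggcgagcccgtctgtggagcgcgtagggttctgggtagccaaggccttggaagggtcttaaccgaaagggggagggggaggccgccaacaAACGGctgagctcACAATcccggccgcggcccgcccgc
Spz1: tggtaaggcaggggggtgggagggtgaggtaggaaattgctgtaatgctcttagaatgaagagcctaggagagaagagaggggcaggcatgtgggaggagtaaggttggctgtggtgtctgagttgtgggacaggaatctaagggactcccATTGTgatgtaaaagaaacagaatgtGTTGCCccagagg
Fhl5: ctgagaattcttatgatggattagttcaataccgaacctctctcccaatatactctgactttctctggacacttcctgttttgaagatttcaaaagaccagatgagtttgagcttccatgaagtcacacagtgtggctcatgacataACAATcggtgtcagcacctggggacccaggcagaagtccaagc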

How the data were processed

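RNA of 3 neonatal and 3 adult testis samples was labelled with Cy3 and read on 6 arrays. The deposited scanner files, made by the authors with Feature Extraction 10.5.1.1, hold the background-subtracted intensity of each spot with no normalization between arrays. A table of the authors' own log2 values was deposited too and served as an alternative only. Spots of a probe were averaged, control spots and spots marked as outliers left out, and each array scaled to its 75th percentile with a common floor. On the arrays, 6.11% to 30.7% of spots were marked and 65.9% to 69.8% were well above background, with a lowest such signal of 6.09 to 24.0. The number of arrays limits the precision.

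The fit took probes with at least 2 complete pairs and a signal well above background on 1 array or more. It used limma 3.58.1 (R 4.3.3) and blocked on replicate number, and p-values were adjusted by Benjamini-Hochberg over all probes tested. The block was kept because the methods name a paired test. Deviations from the mean of the age correlated across probes at 0.401, 0.339 and 0.681 for replicates 1 to 3. Different numbers of the same scan gave 0.432 and 0.374, and arrays of different scans gave values between -0.586 and -0.481. Within scan 1 a shared number thus gave no higher correlation than a shared scan alone. In scan 2, which holds only replicate 3, number and scan coincide. A gene was called where at least 1 of its probes was called and none the other way. Fold changes against an age with no signal well above background are given as lower bounds. That age was set to the lowest signal well above background on each array, or to the probe's own level where higher. Spots without the flag can read above that lowest signal, so a bound is not a strict minimum fold. Tables were made with pandas 2.3.3 and numpy 2.4.6 in Python 3.11.15 and plots with matplotlib 3.10.9. The fit was also run on simulated data, and no result given here rests on that run.

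The members and lists were chosen with earlier results of these data known. Named genes are every probe of the 10 regulators, up to 2 called genes with the largest rise and fall of each list and any called against its majority, parents and paralogs of the regulators, for marker lists the brightest probe and those never well above background, the lncRNAs placed at a regulator, and the 2 nearest profiles of each regulator probe free of marks. Genes named beyond this rule to spell out a count of 5 or fewer were chosen after their values were seen. No probe matched Atf7, Taf1, Ovol3, Dmrtb1, Rhox5 or Cd68. Alternatives were other scalings, floors, filters, blocks, the authors' values, the t-test of the methods, kept outlier spots, and leaving out each replicate.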

Additional observations from a re-analysis of the deposited data

How the results depend on the processing

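Among the log2 fold changes of single regulator probes recomputed under the alternatives, 317 kept their direction and their side of the threshold or stayed within the replicate spread, 4 lost their call, 2 reversed and 5 moved by more than that spread. Counts and medians are not part of this tally. It is not a measure of stability, since the filters on dim probes and the t-test of the methods cannot change a fold change. The run without replicate 3 and the run within scan 1 are the same fit, and both are in the tally. Runs in which the adjusted p of Tbpl1 or Mybl1 rose above 0.05 also count as kept, since neither gene was called. The 6 called genes were called in every setting with 9 or more regulators tested. Among these settings, the run without replicate 3 used the same arrays as the main fit for Rfx2, Sox30, Gtf2a1l and Spz1. The Crem probes for NM_001110851 and NM_001110852 reversed with normexp correction, to 0.35 and 0.36, and the cause was not tested. The median of the regulator probes was 3.48 with scaling to the median, 3.41 with the authors' log2 values, 3.49 within scan 2 (1 pair) and 2.76 to 3.75 with a replicate left out. With no replicate block there were 6 genes called, 1915 mRNA probes higher and 2038 lower, and a median of 3.76. mRNA probes called lower numbered 1034 with normexp, 3873 with the authors' values, 1263 with the t-test of the methods after adjustment and 5527 at a fold of 2, where 3530 were higher. With a replicate left out, 2 to 6 regulators, 847 to 1870 mRNA probes higher and 920 to 2026 lower were called, fewer pairs being available. With the adjusted t-test of the methods 4 Crem probes lost their call, at the same fold changes. The median over all mRNA probes moved from -0.40 to -0.65 with quantile normalization, -0.65 with scaling to the median, 0.03 with normexp and -0.84 with the authors' values, and calls that were higher went from 47.9% to 40.3%, 39.8%, 59.2% and 37.0%. Signal over background limits Spz1 and the other bounds.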
